A study of Mus musculus with 18 samples.

Results

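Cyclin A1 and a group of regulators of the meiotic divisions were followed in mouse spermatocytes and testes of 2 stocks that carry a T43 translocation chromosome and of inbred males. The genes were chosen by name, as the named probe sets of the array for Ccna1, Ccnb1, Ccnb2, Cdk1, Cdc25c, Plk1, Aurka, Dlgap5 and Cdc27. Of these 9 genes, 8 have a named probe set among the 15780 named genes. Ccnb1 is not analysed here. The rule uses no measured value, though the genes were proposed with earlier results of these data known.

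The decision of a spermatocyte to leave prophase rests on a cyclin-dependent kinase. Cdk1 binds a cyclin, is held back by inhibitory phosphates, and is released when a phosphatase of the Cdc25 family removes them. Ccna1 is the germ-cell form of cyclin A, and male mice that lack it stop before the first meiotic division. Ccnb2 is a B-type cyclin partner of Cdk1. Plk1 and Aurka are mitotic kinases that push Cdk1 activation forward and build the spindle. Dlgap5 is a microtubule-binding spindle factor, and Cdc27 is a subunit of the anaphase-promoting complex, which ends division by marking cyclins for destruction.

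The series holds 18 expression arrays. Sorted spermatocytes came from males aged 2 months. They are pre-mid-pachytene cells of C57BL/10J-t12+/+T43 males (n = 3), of C57BL/10J-Ttf+/+T43H males (n = 3), and mid-late-pachytene (n = 2) and pre-mid-pachytene (n = 2) cells of fertile C57BL/10J males. Whole testes without their outer coat came from males aged 15 days, of the same t12+/+T43 (n = 3) and Ttf+/+T43H (n = 3) stocks and of C57BL/6J (n = 2). Both carrier stocks, called t12 and Ttf carriers below, hold a T43 translocation chromosome, and they differ in the other chromosome named. The sorted controls share the strain background of the carriers. The testis controls do not, so in testes carrier status and strain cannot be told apart. The series calls its replicates biological. Mid-late cells were sorted from C57BL/10J males only.

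None of the 8 genes lies on chromosome 16 or 17, the chromosomes joined in the T43H translocation. On mouse build GRCm38.p6 Ccna1 spans chr3:55045469-55057634, Ccnb2 chr9:70407689-70421554 and Cdk1 chr10:69335146-69352912. Plk1 spans chr7:122159435-122169884 and Aurka chr2:172356190-172370886. Dlgap5 spans chr14:47387779-47418407 and Cdc27 chr11:104502524-104550620.

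Promoters are shown because genes of the division machinery are known for short shared sequence elements near their starts. RefSeq promoter sequences of build GRCm38.p6 were matched for 6 of the 8 genes. The 250 bases before the start are printed in the direction of the gene. Capitals mark TTTGAA, the core of the cell-cycle homology region, and CCAAT, the box read by nuclear factor Y, which appears as ATTGG where it lies on the opposite strand. The starts used for Ccna1 and Aurka lie inside the annotated genes.
Ccna1 (chr3:55055056-55055305, minus strand): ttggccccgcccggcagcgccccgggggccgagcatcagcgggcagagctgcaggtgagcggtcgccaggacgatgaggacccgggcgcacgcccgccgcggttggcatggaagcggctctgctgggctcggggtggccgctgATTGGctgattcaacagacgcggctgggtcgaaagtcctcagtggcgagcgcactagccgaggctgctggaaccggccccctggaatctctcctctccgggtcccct
Ccnb2 (chr9:70421555-70421804, minus strand): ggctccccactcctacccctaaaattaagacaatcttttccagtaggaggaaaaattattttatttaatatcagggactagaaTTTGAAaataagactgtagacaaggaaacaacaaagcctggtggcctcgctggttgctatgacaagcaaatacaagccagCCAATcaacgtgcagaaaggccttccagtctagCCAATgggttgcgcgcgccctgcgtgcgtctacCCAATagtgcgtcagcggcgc
Cdk1 (chr10:69352913-69353162, minus strand): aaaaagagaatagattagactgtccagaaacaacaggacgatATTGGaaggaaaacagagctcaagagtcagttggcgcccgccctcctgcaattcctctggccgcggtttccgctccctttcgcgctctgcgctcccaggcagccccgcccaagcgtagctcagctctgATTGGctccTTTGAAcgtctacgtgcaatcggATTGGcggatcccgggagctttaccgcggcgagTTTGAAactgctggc
Plk1 (chr7:122159185-122159434, plus strand): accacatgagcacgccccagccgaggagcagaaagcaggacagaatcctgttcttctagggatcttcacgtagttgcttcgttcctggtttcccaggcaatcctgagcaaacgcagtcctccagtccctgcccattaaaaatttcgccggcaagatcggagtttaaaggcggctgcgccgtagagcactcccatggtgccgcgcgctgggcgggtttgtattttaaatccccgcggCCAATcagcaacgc
Aurka (chr2:172370571-172370820, minus strand): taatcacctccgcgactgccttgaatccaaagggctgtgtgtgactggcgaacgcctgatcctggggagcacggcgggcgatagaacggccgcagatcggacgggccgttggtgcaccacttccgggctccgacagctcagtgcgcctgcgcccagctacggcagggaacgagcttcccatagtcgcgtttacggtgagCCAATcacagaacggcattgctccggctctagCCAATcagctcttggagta
Cdc27 (chr11:104550621-104550870, minus strand): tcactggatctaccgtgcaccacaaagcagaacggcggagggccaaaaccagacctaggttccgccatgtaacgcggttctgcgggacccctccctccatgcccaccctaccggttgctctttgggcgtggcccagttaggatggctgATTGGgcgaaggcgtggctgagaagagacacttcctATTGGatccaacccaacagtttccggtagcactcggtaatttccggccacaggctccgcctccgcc

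Each window of 250 bases before to 50 bases after the start was searched on both strands for 4 motifs, picked with expression values known. They are the elements in capitals and the Myb-family cores CAACNG and, as a second form, TAACNG. The CCAAT box was found in 6 of 6 promoters, against 37.4% of 32851 mouse promoters of the same length. TTTGAA was found in 4 of 6, against 17.9% of all promoters. Those 4 were Ccnb2, Cdk1, Plk1 and Aurka, and in Plk1 and Aurka the match lies after the start, outside the printed bases. CAACNG was found in 4 of 6, against 35.0%, and TAACNG in 2 of 6, against 23.3%. In Ccna1, CAACNG matched at positions -151 to -146 and -96 to -91, counted back from the start. The 4 motifs share no position in these windows. A match is a stretch of letters, with no binding measured.

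Levels are the deposited log2 values, so a step of 1 is a doubling, and they are compared between samples for each gene, never between genes. A gene was tested with limma where at least 2 arrays of a fit reached a log2 level of 4, with sorted cells (10 arrays, 9666 genes) and testes (8 arrays, 9134 genes) fitted apart. A gene is said to have risen or fallen where p, adjusted over all genes of the comparison, was under 0.05. All 8 genes passed this filter in sorted cells, and 7 did in testes. Differences are in log2 units and are given with limma's SE. With 2 or 3 arrays per group, statements that ranges do not overlap describe the values and are not tests.

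The labels of the sorted cells were set against marker genes. Sycp3, part of the synaptonemal complex, stood between 13.77 and 16.10 in all sorted arrays. Dmc1, a recombinase of early prophase, stood at 3.58 and 3.50 in mid-late cells, against 11.72 and 11.96 in C57BL/10J pre-mid cells. The mean of 10 mid-late markers was 12.90 and 13.16 in mid-late cells, against 11.58 and 11.48 in C57BL/10J pre-mid cells. The mean of 11 spermatid markers, which pachytene cells should lack, was nevertheless 12.26 and 11.64 on the C57BL/10J pre-mid arrays. It was 5.58, 8.07 and 5.63 on the t12 arrays, 9.97, 10.34 and 10.43 on the Ttf arrays, and 9.51 and 8.90 on the mid-late arrays. A mean of Leydig cell markers was 8.03, 8.12 and 10.61 on the t12 arrays and 8.31, 6.96 and 6.93 on the Ttf arrays, against 5.80 and 3.998 on the C57BL/10J pre-mid arrays. That of Sertoli cell markers ran from 6.92 to 7.79 on the t12 arrays and from 6.65 to 7.07 on the Ttf arrays. It was 6.14 and 6.19 on the C57BL/10J pre-mid arrays. A mean of spermatogonial markers reached 8.55 on Ttf array 2. Ttf array 2 and t12 array 3 had been seen to stand apart in earlier work on these data, and results are given without both where that changes a call. The 3' minus 5' signal of the Gapdh control ran from 3.26 to 3.98 in carrier cells. It was 2.86 and 2.93 in C57BL/10J pre-mid cells, and 2.51 and 3.39 in mid-late cells. That of the actin control ran from 3.06 to 4.41 in carrier cells. It was 2.49 and 2.51 in C57BL/10J pre-mid cells, and 3.51 and 3.38 in mid-late cells. All carrier arrays thus lay above both C57BL/10J pre-mid arrays in both measures. The part of this, and of the spermatid, Leydig and Sertoli markers, in differences between carrier and C57BL/10J pre-mid cells was not tested.

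The clearest event among these genes was the rise of Ccna1 RNA in mid-late cells. The sorted levels of Ccna1 were 4.84, 6.23 and 4.64 in t12 cells, 6.46, 7.23 and 7.01 in Ttf cells, 12.68 and 12.74 in C57BL/10J mid-late cells, and 7.04 and 6.71 in C57BL/10J pre-mid cells. Mid-late cells stood far above every other array. Ccna1 rose by 5.83 ± 0.50 in mid-late against pre-mid C57BL/10J cells, 57.1-fold (adjusted p = 2.04e-05). Against the mid-late cells, it fell by 7.47 ± 0.46 in t12 cells (177-fold, adjusted p = 2.0e-06) and by 5.81 ± 0.46 in Ttf cells (56.2-fold, adjusted p = 9.88e-06). These 3 calls held under all 15 alternatives. In bulk samples of this kind, fewer cells of a type and less RNA per cell cannot be told apart.

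Between cells labelled as the same stage, Ccna1 was lower in t12 cells than in the others without passing the test. All t12 arrays lay below all Ttf arrays and all C57BL/10J pre-mid arrays. The difference was -1.66 ± 0.41 for t12 minus Ttf (adjusted p = 0.136) and -1.64 ± 0.46 for t12 minus C57BL/10J (adjusted p = 0.0641). Among all tested genes, 6.19% lay wholly lower in t12 than in Ttf cells, and 20.9% wholly lower in t12 than in C57BL/10J cells. T12 array 2 decided both calls. Without it the differences were -2.15 (adjusted p = 0.00297) and -2.13 (adjusted p = 0.0026). That array also had the highest mean of spermatid and of mid-late markers among the t12 arrays, 8.07 against 5.58 and 5.63, and 10.58 against 9.55 and 9.44. The part of these markers in the result was not tested. Ttf and C57BL/10J pre-mid cells overlapped, with a difference of 0.02 ± 0.46, whose 95% interval ran from -1.02 to 1.07.

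In testes of 15 days Ccna1 was below the filter level in every array. It stood at 3.33, 3.68 and 3.54 in t12 testes, 3.68, 3.98 and 3.66 in Ttf testes, and 3.62 and 3.56 in C57BL/6J testes. No test was made there, since values below 4 carry little signal. The spermatid markers were likewise between 2.79 and 2.92 on average in all testis arrays. Across all groups Ccna1 was ordered from mid-late cells over Ttf pre-mid, C57BL/10J pre-mid and t12 pre-mid cells to the testes, and ranges overlapped between Ttf and C57BL/10J pre-mid cells, between t12 and Ttf testes and between t12 and C57BL/6J testes.

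**Figure D1:**
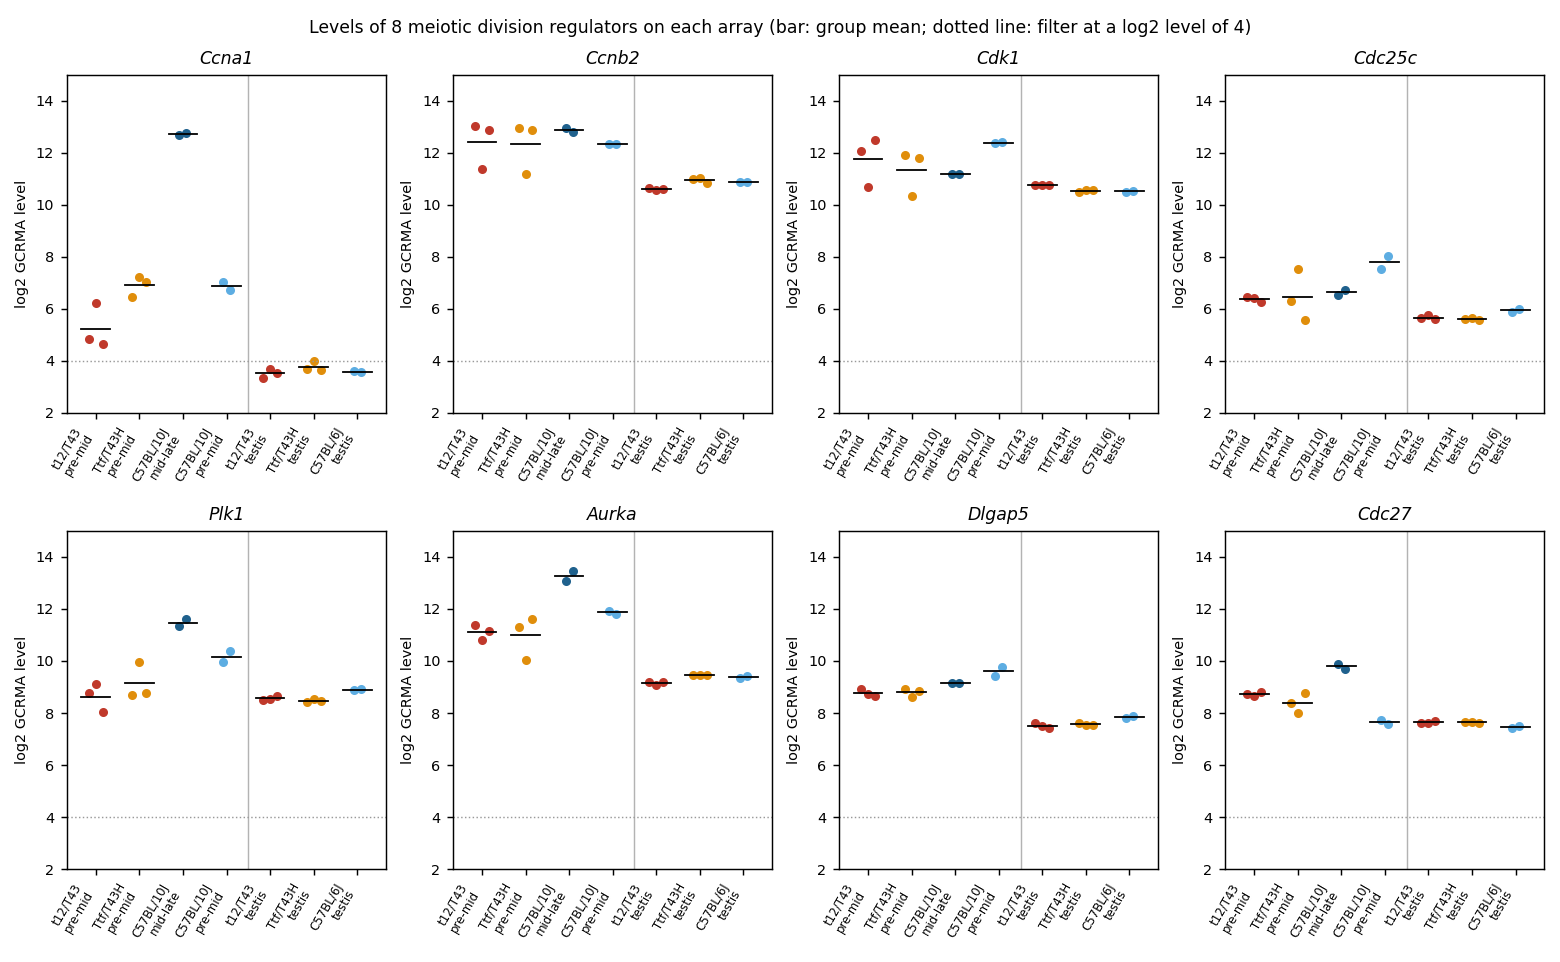
Log2 GCRMA levels of the 8 genes on each of the 18 arrays, by group, with group means as bars and a dotted line at the filter level of 4. Ccna1 stands at 12.68 and 12.74 in C57BL/10J mid-late cells and below 8 in every other group.

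The 4 cyclins of this machinery followed different courses. Ccnb2 was high in all sorted cells, at 13.04, 11.36 and 12.87 in t12 cells, 12.93, 11.19 and 12.87 in Ttf cells, 12.94 and 12.80 in mid-late cells, and 12.32 and 12.34 in C57BL/10J pre-mid cells. The sorted groups overlapped in part, and no sorted comparison passed the test. Mid-late minus pre-mid C57BL/10J cells gave 0.54 ± 0.68 (adjusted p = 0.541). Ccna2, the somatic cyclin A that drives DNA replication and mitosis, ran the other way to Ccna1. It was 3.62 and 3.65 in mid-late cells, against 9.50 and 9.90 in C57BL/10J pre-mid cells. Ccnb3, a cyclin of early meiotic prophase encoded on the X chromosome, was 1.84 and 1.41 in mid-late cells, against 10.38 and 10.45 in C57BL/10J pre-mid cells. Mid-late levels of Ccna2 and Ccnb3 were below 4, so both entered the test only through the groups where they are high. Their called falls are not read as results, and no size is given for their differences. Later counts of falls include such genes, as do the shares of all tested genes. The level of X-linked minus that of autosomal genes was -3.55 and -3.65 in mid-late cells, against -0.62 and -0.58 in C57BL/10J pre-mid cells.

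**Figure D2:**
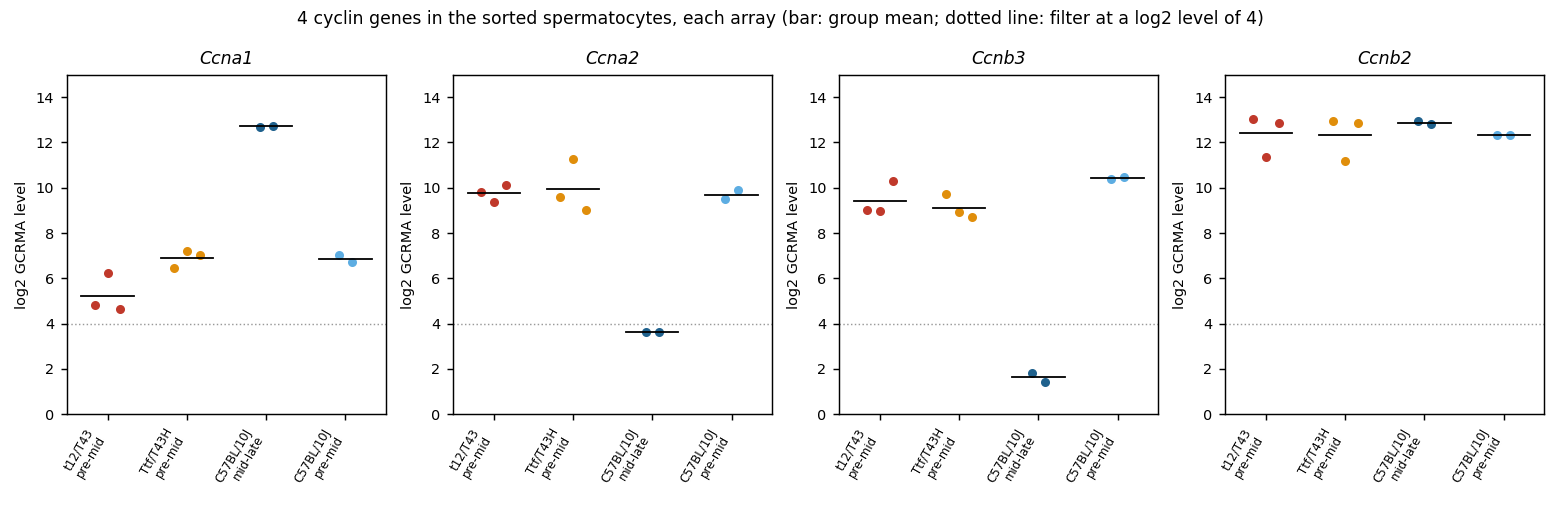
Log2 GCRMA levels of Ccna1, Ccna2, Ccnb3 and Ccnb2 on each sorted array, with group means as bars and a dotted line at the filter level of 4. In mid-late cells Ccna1 is above 12 while Ccna2 and Ccnb3 are below 4, and Ccnb2 is above 11 in every group.

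In carrier cells Ccna2 and Ccnb3 stood far above their mid-late levels. Ccna2 was 9.82, 9.35 and 10.11 in t12 cells and 9.59, 11.29 and 9.01 in Ttf cells. Ccnb3 was 9.04, 8.97 and 10.30 in t12 cells and 9.73, 8.92 and 8.72 in Ttf cells. Both genes passed the filter only through the groups where they are high. Their gap to the mid-late arrays is therefore not read as a result.

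Cdk1, the kinase itself, was 12.05, 10.69 and 12.49 in t12 cells, 11.89, 10.32 and 11.81 in Ttf cells, 11.18 and 11.16 in mid-late cells, and 12.35 and 12.40 in C57BL/10J pre-mid cells. The C57BL/10J groups did not overlap, t12 cells overlapped both, and Ttf cells overlapped the mid-late cells. No sorted comparison passed the test, and mid-late minus pre-mid C57BL/10J cells gave -1.20 ± 0.65 (adjusted p = 0.147). Ccnb2 and Cdk1 were lowest on the same carrier arrays, Ttf array 2 and t12 array 2. Those arrays also had the highest 3' minus 5' signals of the actin control (4.41 and 3.99) and of the Gapdh control (3.91 and 3.98). The part of this RNA quality measure in the levels was not tested.

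Cdc25c (chr18:34732993-34751564), a phosphatase that activates Cdk1, was highest in C57BL/10J pre-mid cells. It stood at 6.47, 6.40 and 6.24 in t12 cells, 6.31, 7.51 and 5.58 in Ttf cells, 6.54 and 6.72 in mid-late cells, and 7.54 and 8.02 in C57BL/10J pre-mid cells. All other sorted arrays lay below the C57BL/10J pre-mid arrays. Among all tested genes, 20.9% lay wholly lower in t12 than in C57BL/10J pre-mid cells. The shares for Ttf and mid-late cells are not given here. The differences from C57BL/10J pre-mid cells were -1.41 ± 0.48 in t12 cells (adjusted p = 0.118), -1.31 ± 0.48 in Ttf cells (adjusted p = 0.202) and -1.15 ± 0.53 in mid-late cells (adjusted p = 0.0936). Without Ttf array 2 and t12 array 3 all 3 passed, at adjusted p = 0.0363, 0.0309 and 0.012. Ttf array 2 held the highest Ttf level of Cdc25c (7.51), so leaving it out lowers the spread by construction. These gained calls are not read as results. The comparisons share the same 2 control arrays. Those arrays also had the highest mean of spermatid markers among the sorted arrays, 12.26 and 11.64. The part of these markers in the Cdc25c levels was not tested.

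Plk1 and Aurka, the kinases, were highest in mid-late cells. Plk1 was 8.77, 9.12 and 8.02 in t12 cells, 8.71, 9.96 and 8.77 in Ttf cells, 11.33 and 11.61 in mid-late cells, and 9.95 and 10.37 in C57BL/10J pre-mid cells. The mid-late arrays lay above all others, and the C57BL/10J pre-mid arrays lay above all carrier arrays but Ttf array 2. Plk1 fell by 2.83 ± 0.45 in t12 cells (7.13-fold, adjusted p = 5.2e-04) and by 2.32 ± 0.45 in Ttf cells (5.00-fold, adjusted p = 0.00182) against mid-late cells. Against pre-mid C57BL/10J cells it rose by 1.31 ± 0.49 in mid-late cells (adjusted p = 0.0474). That rise was lost in 7 of 10 fits without 1 array, and kept without Ttf array 2, t12 array 2 or t12 array 3. Leaving out the others gave adjusted p between 0.0513 and 0.198. It was also lost with no filter (0.0609) and under quantile normalization (0.0964).

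Aurka was 11.38, 10.82 and 11.15 in t12 cells, 11.29, 10.04 and 11.62 in Ttf cells, 13.07 and 13.47 in mid-late cells, and 11.91 and 11.81 in C57BL/10J pre-mid cells. Here too the mid-late arrays lay above all others, and all carrier arrays lay below the C57BL/10J arrays. Of all tested genes, 20.9% lay wholly lower in t12 than in C57BL/10J pre-mid cells. Aurka fell by 2.15 ± 0.43 in t12 cells (4.44-fold, adjusted p = 0.00218) and by 2.28 ± 0.43 in Ttf cells (4.86-fold, adjusted p = 0.00171) against mid-late cells. Against pre-mid C57BL/10J cells it rose by 1.40 ± 0.48 in mid-late cells (adjusted p = 0.0322). The rise was lost without either mid-late array (0.0709 and 0.157) and without either C57BL/10J pre-mid array (0.0976 and 0.12).

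Dlgap5 was 8.94, 8.74 and 8.67 in t12 cells, 8.92, 8.62 and 8.86 in Ttf cells, 9.14 and 9.16 in mid-late cells, and 9.43 and 9.78 in C57BL/10J pre-mid cells. Carrier arrays lay below both C57BL/10J groups. For t12 against C57BL/10J pre-mid cells, 20.9% of all tested genes lay wholly lower. Dlgap5 fell by 0.82 ± 0.21 in t12 against C57BL/10J pre-mid cells (adjusted p = 0.0476). The same difference in Ttf cells was -0.80 ± 0.21 (adjusted p = 0.0945). The t12 call was lost under 13 of 15 alternatives, and kept only without Ttf array 2 and with no filter.

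Cdc27 was higher in mid-late than in pre-mid C57BL/10J cells, and stood between these 2 groups in carrier cells. It was 8.74, 8.64 and 8.80 in t12 cells, 8.39, 8.01 and 8.78 in Ttf cells, 9.89 and 9.71 in mid-late cells, and 7.73 and 7.58 in C57BL/10J pre-mid cells. All carrier arrays lay above the pre-mid and below the mid-late C57BL/10J arrays. The share of all tested genes with such separation is not given here, so it is not read as a result. The C57BL/10J groups also differed in markers of other cells, with Sertoli means of 6.16 in pre-mid and 3.82 in mid-late cells. The part of this in the Cdc27 levels was not tested. In mid-late against pre-mid C57BL/10J cells Cdc27 rose by 2.15 ± 0.27 (4.42-fold, adjusted p = 1.93e-04), under all 15 alternatives too. It also rose in t12 against C57BL/10J pre-mid cells, by 1.07 ± 0.25 (adjusted p = 0.0322), a call lost under 8 of 15 alternatives. Of those, 7 were the fits without either mid-late array, either C57BL/10J pre-mid array, Ttf array 1, t12 array 1 or t12 array 3, at adjusted p from 0.0641 to 0.227. In Ttf cells the difference was 0.74 ± 0.25 (adjusted p = 0.173). Against mid-late cells it fell by 1.07 ± 0.25 in t12 cells (adjusted p = 0.00489) and by 1.41 ± 0.25 in Ttf cells (adjusted p = 0.00117). The t12 call was lost without mid-late array 1 (0.0511).

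**Figure D3:**
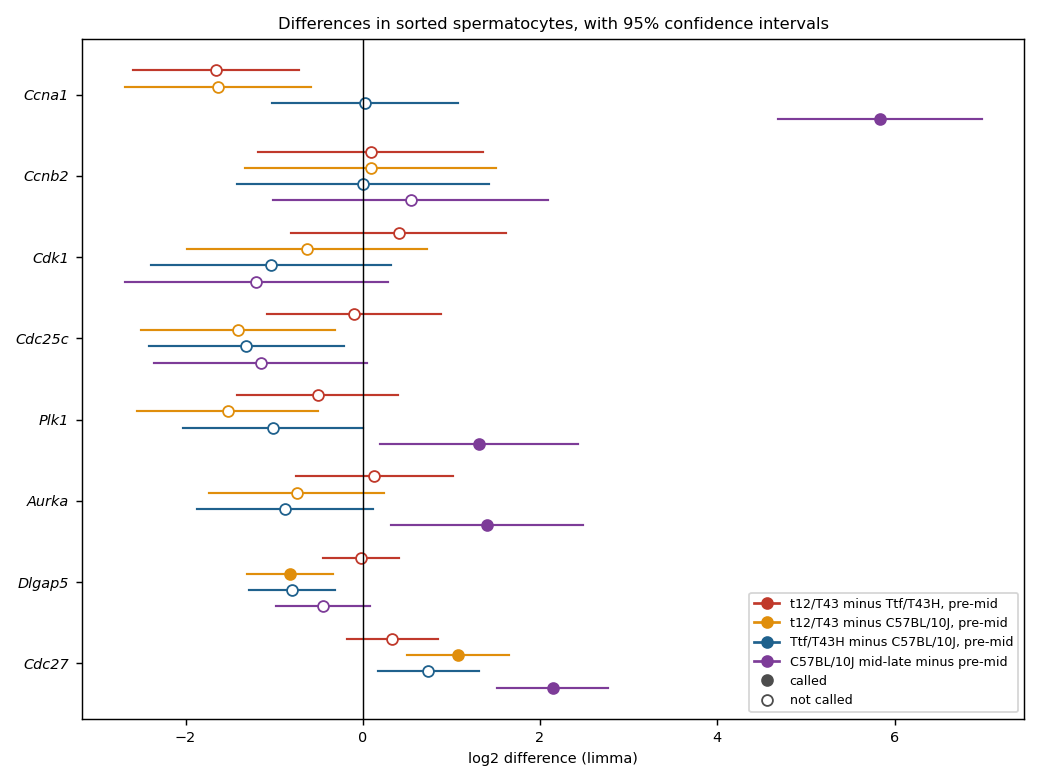
Log2 differences of the 8 genes in sorted cells with 95% intervals from limma, filled where adjusted p was under 0.05. In mid-late against pre-mid C57BL/10J cells Ccna1 differs by 5.83 and Cdc27 by 2.15, while t12 minus Ttf has no filled point.

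Counted over the 8 genes, 4 rose (Ccna1, Plk1, Aurka and Cdc27) and 0 fell in mid-late against pre-mid C57BL/10J cells, where 26.2% of all tested genes rose and 30.3% fell. Their median difference was 0.92, against -0.11 over all tested genes. The same 4 genes fell in t12 against mid-late cells, where 30.2% of all genes fell, and in Ttf against mid-late cells, where 28.6% fell. Those comparisons share the mid-late arrays. Medians were -0.76 and -0.97, against 0.16 and 0.13 over all genes. In t12 against C57BL/10J pre-mid cells 1 rose and 1 fell, where 3.24% of all genes rose and 5.83% fell, and the median was -0.78, against 0.06.

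In Ttf against C57BL/10J pre-mid cells 0 of 8 passed in limma, where 2.06% of all genes did, and the median was -0.84, against 0.01. At an unadjusted p under 0.05 the count was 3, where 17.9% of all genes passed. Without Ttf array 2 and t12 array 3, 2 fell, Cdc25c (-1.84, adjusted p = 0.0309) and Plk1 (-1.42, adjusted p = 0.0317). With all arrays Plk1 gave -1.01 ± 0.45 (adjusted p = 0.281). Ttf array 2 held the highest Ttf level of both genes, so leaving it out lowers their spread by construction. These 2 calls are not read as results. Between t12 and Ttf pre-mid cells 0 of 8 passed, where 0.755% of all genes did, and 1, Ccna1, had an unadjusted p under 0.05, where 10.2% of all genes did. The median was 0.03, against 0.05 over all genes. Without the same 2 arrays, in t12 against C57BL/10J pre-mid cells, Cdc27 rose and 2 fell, Cdc25c and Plk1 (-1.22, adjusted p = 0.0241), while Dlgap5 no longer passed (0.0553). With all arrays Plk1 gave -1.53 ± 0.45 (adjusted p = 0.0733) in that comparison. The 2 gained falls have the same limit and are not read as results.

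Ccna1 was set beside lists of stage markers. The mid-late list was 9.55, 10.58 and 9.44 in t12 cells, 10.91, 10.60 and 11.46 in Ttf cells, 12.90 and 13.16 in mid-late cells, and 11.58 and 11.48 in C57BL/10J pre-mid cells. It ordered the groups as Ccna1 did, but for Ttf and C57BL/10J pre-mid cells, which overlap in Ccna1 and do not in the list. Of its markers, Pgk2, Tcp11 and Crisp2 lie on chromosome 17. For these, t12 minus Ttf cells gave -2.30, -2.73 and -0.997. Adam3 and Spink2, on other chromosomes, gave -3.05 and -2.29. Ldhc, Piwil1, Clgn and Meig1, also on other chromosomes, gave -0.14, 0.31, 0.12 and -0.39. The part of chromosome 17 in the low t12 values of the list was not tested.

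**Figure D4:**
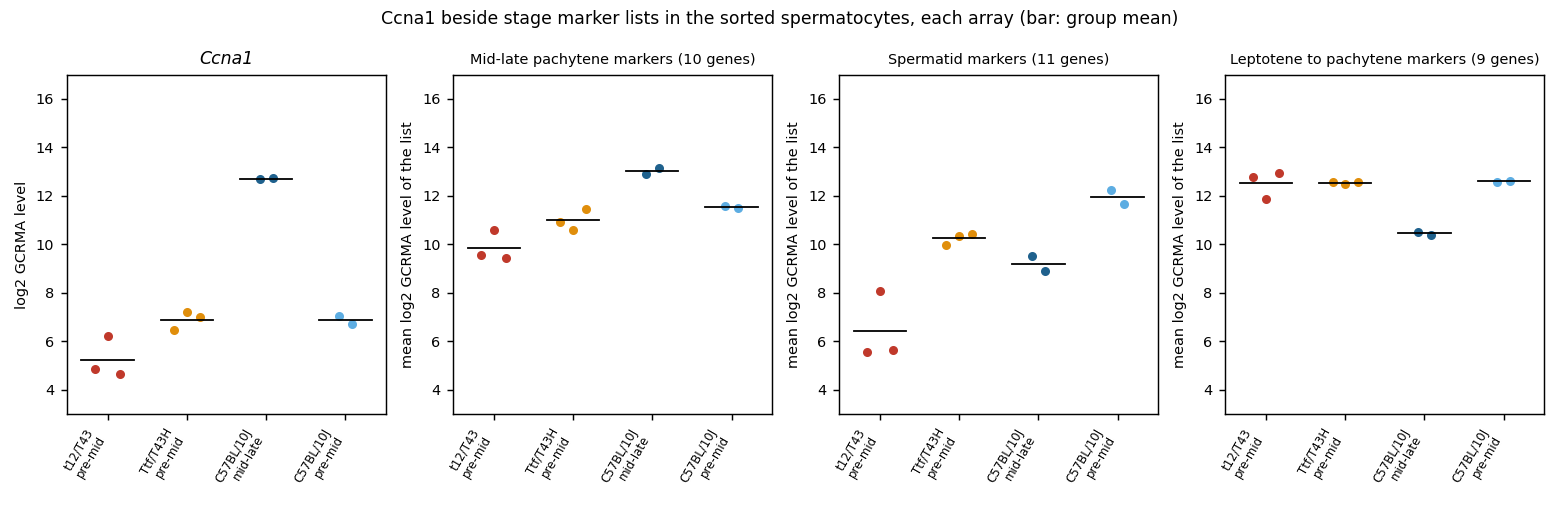
Log2 GCRMA level of Ccna1 and mean log2 levels of the mid-late pachytene, spermatid and leptotene-to-pachytene marker lists on each sorted array, with group means as bars. Ccna1 is above 12 in mid-late cells alone, whereas the spermatid list is highest in C57BL/10J pre-mid cells, at 12.26 and 11.64.

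The genes whose pattern was most like that of Ccna1, by Pearson's r over all 18 arrays among 10212 genes, were Adam1b (0.996), Prss21 (0.995), Mesp1 (0.993), Plaat1 (0.992) and Atxn7l1 (0.992). All 5 were high in mid-late cells and low elsewhere, so the likeness rests largely on the 2 mid-late arrays. Mesp1 averaged 3.47 in t12 cells, 6.05 in Ttf cells, 12.62 in mid-late cells and 5.97 in C57BL/10J pre-mid cells. Adam1b averaged 4.20, 5.78, 11.40 and 5.87 in the same groups.

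Lists of further genes of the pathway put the 8 genes in context. Of 20 tested genes regulating cyclin-dependent kinases, 1 rose and 9 fell in mid-late against pre-mid C57BL/10J cells, with a median of -0.84, against -0.11 over all genes. The share of all tested genes was 26.2% for a rise and 30.3% for a fall. Besides Ccna2 and Ccnb3, Cks1b, a small Cdk-binding subunit, fell by 3.89 ± 0.32, to 9.66 against 13.55. Arpp19, an inhibitor of the phosphatase that opposes Cdk1, fell by 4.39 ± 0.27, to 6.29 against 10.68. Wee1, a kinase that inhibits Cdk1, gave -0.25 ± 0.30 (adjusted p = 0.524).

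Of 17 tested genes of the anaphase-promoting complex and its partners, 3 rose and 7 fell in mid-late cells, where 26.2% of all genes rose and 30.3% fell, with a median of -0.75. Cdc27 went up while Cdc16, a sister subunit of the same complex, fell by 3.65 ± 0.33 (12.6-fold). Anapc4 and Anapc1, further subunits, fell 8.03-fold and 6.34-fold. Cdc20, the activator of the complex, gave -0.62 ± 0.41 (adjusted p = 0.228).

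Of 35 tested spindle, kinetochore and checkpoint genes, 5 rose and 7 fell, with a median of 0.03. Those are shares below the 26.2% and 30.3% of all tested genes that rose and fell. Mad2l1, a checkpoint protein, fell by 2.75 ± 0.28, and Bub1, a checkpoint kinase, fell by 1.97 ± 0.29. Cenpa, the centromeric histone, had a mean of 2.51 in mid-late cells, below the filter level, against 10.32 in C57BL/10J pre-mid cells. Like Ccna2 and Ccnb3, Cenpa entered the test only through the groups where it is high, so its called fall is not read as a result. Ttk, another checkpoint kinase, rose by 1.35 ± 0.23 (adjusted p = 9.62e-04).

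Of 8 tested genes known for the entry of male cells into division, 2 rose and 1 fell, with a median of 0.40. Over all tested genes 26.2% rose and 30.3% fell, so these counts lie near or below those shares. Mybl1, the Myb factor of pachytene cells, rose by 1.52 ± 0.33 (adjusted p = 0.00359) and Eif4g3, a translation factor needed for the exit from prophase in mouse males, rose by 1.34 ± 0.32 (adjusted p = 0.00687). Ythdc2, an RNA-binding protein of the meiotic programme, fell by 3.25 ± 0.38. Hspa2, a chaperone that Cdk1 needs in mouse spermatocytes, gave 0.35 ± 0.50 (adjusted p = 0.593). Fbxo43, an inhibitor of the anaphase-promoting complex, was below 4 in every array. Markers of other cells moved in the same comparison. Of 9 tested proliferation genes 7 fell, and of 7 tested Sertoli markers 6 fell, where 30.3% of all tested genes fell. Their part in the falls above was not tested.

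Few genes of these lists passed the test between carrier and C57BL/10J pre-mid cells, each comparison resting on the same 2 control arrays. In t12 cells 3 of 20 regulators fell, where 5.83% of all genes fell, with a median of -0.00 against 0.06 over all genes. Those were Ccnd3, a D-type cyclin (-1.13 ± 0.27, adjusted p = 0.0354), Cdk2, a partner of cyclin A (-1.08 ± 0.26, adjusted p = 0.0371), and Pkmyt1, a kinase that inhibits Cdk1 (-1.35 ± 0.34, adjusted p = 0.0411). Each was lost under 9 or 10 of 15 alternatives, among them the fits without either C57BL/10J pre-mid array. Ccnd3 and Pkmyt1 lie on chromosome 17. In the other 3 lists 0 of 60 tested genes passed in limma in t12 cells, where 3.24% of all genes rose and 5.83% fell. At an unadjusted p under 0.05 the count was 7. It is not read, since the share of all genes at that level is not given here. Of 80 tested genes of the 4 lists, 0 passed in limma in Ttf against C57BL/10J pre-mid cells, where 2.06% of all genes did. An unadjusted p under 0.05 was seen for 10, against 17.9% of all genes. Between t12 and Ttf cells 0 of 80 passed in limma, where 0.755% of all genes did. There 2 had an unadjusted p under 0.05, against 10.2% of all genes. Differences over 2-fold were present among the Ttf values that missed the test, such as -1.21 ± 0.29 for Hmmr, a spindle protein (adjusted p = 0.0714), and -1.09 ± 0.26 for Cdk2 (adjusted p = 0.0725). Against mid-late cells, 10 of the 20 regulators rose and 4 fell in t12 cells, and 8 rose and 4 fell in Ttf cells. Over all genes 34.2% rose in t12 and 31.7% in Ttf cells against mid-late cells, and 30.2% and 28.6% fell. Of the anaphase-promoting genes 7 rose and 2 fell in t12 cells, and 7 rose and 1 fell in Ttf cells. Spindle genes that rose and fell numbered 7 and 5 of 35 in t12 cells, and 8 and 4 in Ttf cells. Mybl1 fell by 0.88 ± 0.30 in t12 cells (adjusted p = 0.028) and by 1.36 ± 0.30 in Ttf cells (adjusted p = 0.00371), calls lost without mid-late array 1 (0.274 and 0.054). The t12 call was also lost without t12 array 2 (0.0628), without t12 array 3 (0.0707), and without Ttf array 2 and t12 array 3 together (0.0543).

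In whole testes the differences were small and the replicates close. Ccnb2 was 10.65, 10.55 and 10.60 in t12 testes, 10.99, 11.01 and 10.84 in Ttf testes, and 10.89 and 10.88 in C57BL/6J testes. The t12 arrays lay below all others. Ccnb2 fell by 0.28 ± 0.07 in t12 against C57BL/6J testes (adjusted p = 0.0241) and by 0.35 ± 0.06 in t12 against Ttf testes (adjusted p = 0.0366). Cdk1 was 10.77 in all 3 t12 testes, 10.49, 10.56 and 10.57 in Ttf testes, and 10.50 and 10.53 in C57BL/6J testes. It rose by 0.26 ± 0.05 in t12 against C57BL/6J testes (adjusted p = 0.0101) and by 0.23 ± 0.04 against Ttf testes (adjusted p = 0.0386).

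Aurka was 9.19, 9.06 and 9.19 in t12 testes, 9.47, 9.46 and 9.47 in Ttf testes, and 9.36 and 9.41 in C57BL/6J testes, again lowest in t12. It fell by 0.24 ± 0.06 in t12 against C57BL/6J testes (adjusted p = 0.023) and by 0.32 ± 0.05 against Ttf testes (adjusted p = 0.0303). Plk1 was lower in both carriers, at 8.49, 8.55 and 8.65 in t12 testes and 8.43, 8.53 and 8.45 in Ttf testes, against 8.88 and 8.92 in C57BL/6J testes. It fell by 0.34 ± 0.06 in t12 testes (adjusted p = 0.0111) and by 0.43 ± 0.06 in Ttf testes (adjusted p = 0.00923), both against C57BL/6J.

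Cdc25c was 5.63, 5.75 and 5.62 in t12 testes and 5.62, 5.64 and 5.57 in Ttf testes, against 5.89 and 6.01 in C57BL/6J testes. It fell by 0.29 ± 0.06 in t12 testes (adjusted p = 0.0188) and by 0.34 ± 0.06 in Ttf testes (adjusted p = 0.0193). Dlgap5 was 7.64, 7.49 and 7.41 in t12 testes and 7.63, 7.54 and 7.55 in Ttf testes, against 7.82 and 7.88 in C57BL/6J testes. It fell by 0.34 ± 0.07 in t12 testes (adjusted p = 0.0195), and Ttf testes gave -0.27 ± 0.07 (adjusted p = 0.0658). Cdc27 was 7.63, 7.63 and 7.69 in t12 testes and 7.66, 7.67 and 7.62 in Ttf testes, against 7.44 and 7.51 in C57BL/6J testes. It rose by 0.17 ± 0.05 in t12 testes (adjusted p = 0.0426), and Ttf testes gave 0.18 ± 0.05 (adjusted p = 0.0684).

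**Figure D5:**
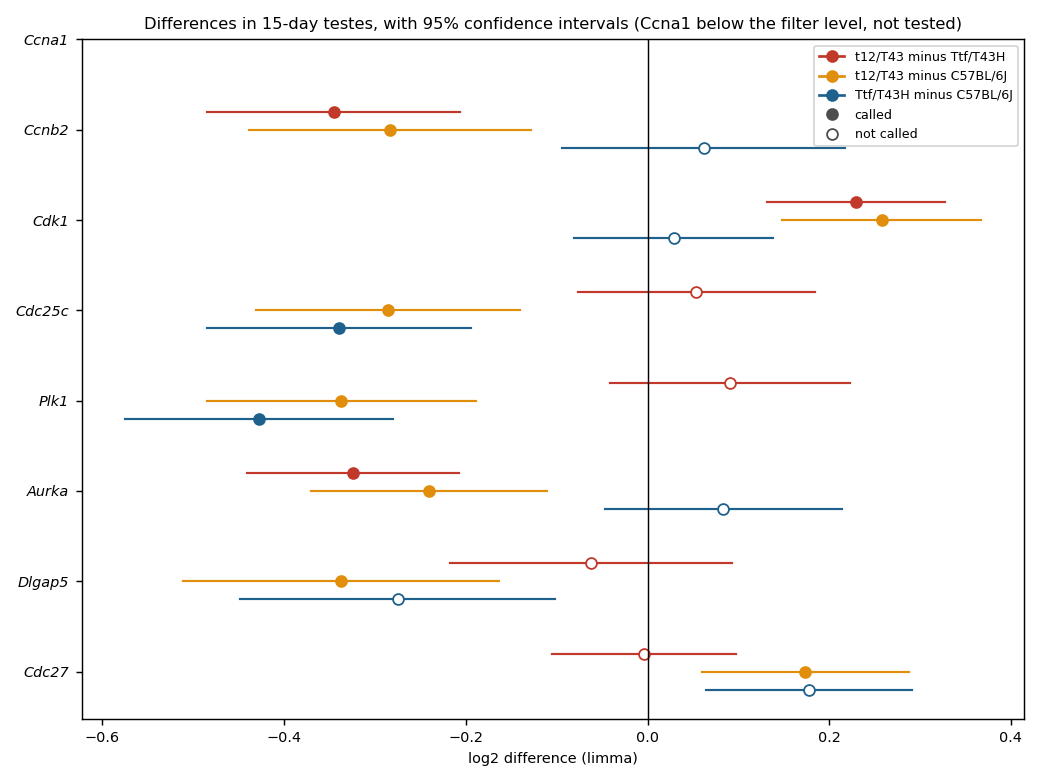
Log2 differences of 7 genes in testes of 15 days with 95% intervals from limma, filled where adjusted p was under 0.05. No interval reaches beyond 0.60 on either side of 0, and all 7 genes have a filled point for t12 minus C57BL/6J.

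Of the 7 genes tested in testes, 2 rose and 5 fell in t12 against C57BL/6J testes, where 10.5% of all genes rose and 11.3% fell, with a median of -0.28 against 0.02 over all genes. In Ttf against C57BL/6J testes 0 rose and 2 fell, where 4.70% of all genes fell, with a median of 0.03 against 0.00. The 2 comparisons share the C57BL/6J arrays. In t12 against Ttf testes 1 rose and 2 fell, where 1.07% of all genes rose and 3.92% fell. Most of these calls hang on single arrays. Of the 7 calls in t12 against C57BL/6J testes, 6 were lost without C57BL/6J array 2 and all 7 without array 1, at adjusted p from 0.0539 to 0.233. The 2 calls in Ttf testes were lost without either C57BL/6J array, and the 3 calls in t12 against Ttf testes were lost in 6 or 7 of 8 fits without 1 array. Of 8 tested mid-late pachytene markers, 6 fell in t12 and 2 in Ttf against C57BL/6J testes, and 3 fell in t12 against Ttf testes. Their part in the differences above was not tested.

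Sorted cells and testes share no arrays. In t12 carriers against their controls 5 of 7 genes differed in the same direction in both, as did 61.3% of 8187 genes tested in both, and in Ttf carriers 5 of 7, against 54.7%. For t12 minus Ttf it was 2 of 7, against 56.9% of all genes. The size of the t12 minus Ttf difference in sorted cells was set against that in testes in a fit of all 18 arrays. There 0 of 8 genes passed in limma, where 0.734% of 10623 genes did. At an unadjusted p under 0.05 the count was 1, Ccna1, where 7.64% of all genes had one. Since Ccna1 was below the filter level in all testes, its value there restates the sorted difference and is not read as a comparison with testes.

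Among the lists, 2 genes stood out in testes. Pttg1, the securin that guards chromosome cohesion, fell by 0.80 ± 0.05 in t12 (adjusted p = 1.49e-04) and by 0.56 ± 0.05 in Ttf (adjusted p = 0.00104) against C57BL/6J testes. Pkmyt1, on chromosome 17, was 7.13, 7.19 and 7.13 in t12 testes and 7.69, 7.51 and 7.52 in Ttf testes, against 8.61 and 8.28 in C57BL/6J testes. It fell by 1.29 ± 0.10 in t12 testes (adjusted p = 4.9e-04) and by 0.87 ± 0.10 in Ttf testes (adjusted p = 0.0042). These 4 calls held under all 12 alternatives. Over the 20 tested regulators, which include Pkmyt1, 2 rose and 1 fell in t12 against C57BL/6J testes, 1 rose and 2 fell in Ttf against C57BL/6J testes, and 0 rose and 2 fell in t12 against Ttf testes. Over all genes, 10.5% rose and 11.3% fell in t12, and 3.86% rose and 4.70% fell in Ttf, against C57BL/6J testes. In t12 against Ttf testes 1.07% of all genes rose and 3.92% fell. Of 34 tested spindle genes, 2 rose and 4 fell in t12, and 1 rose and 1 fell in Ttf, against C57BL/6J testes. Nuf2, an outer kinetochore protein, fell by 0.71 ± 0.10 in t12 testes (adjusted p = 0.00465). Of 17 anaphase-promoting genes 1 rose and 1 fell in t12 against C57BL/6J testes, and 0 passed in limma in Ttf testes (8 at an unadjusted p under 0.05). The share of all genes at that unadjusted level is not given for testes, so such counts are not read. Of 7 tested genes for division entry, 2 fell in t12 testes, Hspa2 and Tbpl1, a TATA-binding protein relative used in male germ cells. Both calls were lost without either C57BL/6J array (0.103 to 0.192). In Ttf testes 0 of 7 passed in limma, and 1 had an unadjusted p under 0.05.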

How the data were processed

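RNA of 18 samples was measured on Affymetrix arrays with a custom definition of 1 probe set per Entrez gene, after 2-cycle labelling of 20 to 30 ng, per the labels' protocols. The deposited values are on the log2 scale and came from GCRMA, an array summary with background removal, per the submitters' processing notes. Its version, and which arrays were normalized together, are not given in the sources used here. Of 16539 probe sets, 15780 have 1 gene name in the platform annotation and 759 have none and were left out. Precision is limited by how few arrays each group has.

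The values were used as deposited. Groups and replicate numbers came from the sample titles. limma 3.58.1 in R 4.3.3 fitted 1 mean per group with lmFit and eBayes, two-sided, to genes with a log2 level of at least 4 on at least 2 arrays of the fit, with Benjamini-Hochberg adjustment of p across the genes tested. The script was tested on simulated data. The t12 and Ttf comparisons share control arrays. Same-numbered arrays did not deviate together in every comparison (correlations from -0.34 to 0.66), so the numbers were not used to pair samples. Positions and names follow a RefSeq table of build GRCm38.p6, and promoters come from RefSeq.

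The rule for named genes was the 8 genes, and for each list up to 4 genes of smallest p per comparison plus a fixed few. The list genes named are a subset picked with their values known. The 5 genes most like Ccna1 were taken by Pearson's r. Members, lists and the arrays that stand apart were chosen with earlier results of these data known. Alternatives were no filter, a filter at log2 6, quantile normalization, the replicate number as a block, leaving out each array, and leaving out Ttf array 2 with t12 array 3. A second pair left out, Ttf array 2 with t12 array 2, was added after seeing that Ccnb2 and Cdk1 were lowest there.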

Additional observations from a re-analysis of the deposited data

How the results depend on the processing

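The 8 genes had 26 called results. Over 352 alternatives of these, 268 kept the call, 84 lost it and 0 reversed it, and 9 results were lost under none of them. Uncalled results gained a call in 18 alternatives. Leaving out Ttf array 2 and t12 array 2 together is counted apart, since that pair was chosen after Ccnb2 and Cdk1 were seen to be lowest on it. Of its 48 results, 15 gained a call, and no result is read from them, since leaving out the arrays where Ccnb2 and Cdk1 were lowest lowers their spread by construction. C57BL/10J groups of 2 arrays limit every sorted comparison, and Ccna1, below the filter level on every testis array, has no test in testes.

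The number of all genes called was 199 in Ttf and 877 in t12 against C57BL/10J pre-mid cells, 73 in t12 against Ttf cells, 5464 in mid-late against pre-mid C57BL/10J cells, and 6224 in t12 and 5825 in Ttf against mid-late cells. In testes it was 1994 in t12 and 782 in Ttf against C57BL/6J, and 456 in t12 against Ttf. It was 78 for the comparison of the t12 minus Ttf difference between sorted cells and testes. With no filter the counts were 15 in t12 against Ttf cells, 8867 in mid-late against pre-mid cells, 9989 in t12 and 9775 in Ttf against mid-late cells, and 149 in t12 against Ttf testes.

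With the replicate block the counts were 18 in Ttf and 400 in t12 against C57BL/10J pre-mid cells, 0 in limma in t12 against Ttf cells (73 without it), 2139 in Ttf against C57BL/6J testes and 1703 in t12 against Ttf testes. Of the calls on the 8 genes, the replicate block lost Dlgap5 (0.158) and Cdc27 (0.0894) in t12 against C57BL/10J pre-mid cells and Cdc27 (0.0515) in t12 against C57BL/6J testes. Without Ttf array 2 and t12 array 3, 542 genes were called in Ttf against C57BL/10J pre-mid cells and 0 in t12 against Ttf cells.

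Leaving out 1 array at a time gave counts from 0 to 632 in Ttf against C57BL/10J pre-mid cells, with 0 without C57BL/10J array 1, and from 141 to 1391 in t12 against them. They ran from 13 to 411 in t12 against Ttf cells, from 3874 to 6218 in mid-late against pre-mid cells, from 4553 to 6833 in t12 and from 4139 to 6106 in Ttf against mid-late cells, and from 46 to 429 for the difference between sorted cells and testes. In testes they ran from 596 to 2081 in t12 and from 176 to 827 in Ttf against C57BL/6J, and from 9 to 900 in t12 against Ttf. For changed counts other than those with fewer arrays or other genes tested, the cause was not tested.

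Signs turned only in differences that were not called. Under quantile normalization, Ccna1 in Ttf against C57BL/10J pre-mid cells was -0.0205 and Cdc27 in t12 against Ttf testes 0.0078. Under the replicate block, Ccnb2 was -0.25 in Ttf and -0.16 in t12 against C57BL/10J pre-mid cells, and in Ttf against mid-late cells Cdk1 was -0.13 and Cdc25c 0.091. Without Ttf array 2 and t12 array 3, Ccna1 in Ttf and Ccnb2 in t12 against C57BL/10J pre-mid cells were -0.14 and -0.135. T12 minus Ttf cells then gave Ccnb2 -0.70, Cdk1 -0.48, Cdc25c 0.49, Plk1 0.20 and Aurka -0.36, and Ttf minus mid-late cells gave Ccnb2 0.0298. The difference between sorted cells and testes gave Ccnb2 -0.36, Cdk1 -0.71, Cdc25c 0.44, Plk1 0.11 and Aurka -0.0317. Without Ttf array 2 and t12 array 2, Ccna1 was -0.14 in Ttf against C57BL/10J pre-mid cells, t12 minus Ttf cells gave Cdc25c 0.41 and Aurka -0.19, and against mid-late cells Ccnb2 was 0.0792 in t12 and 0.0298 in Ttf.

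Leaving out 1 array turned signs within these ranges. Ttf minus C57BL/10J pre-mid cells ran from -0.14 to 0.24 for Ccna1 and from -0.30 to 0.57 for Ccnb2, and t12 minus C57BL/10J pre-mid cells from -0.22 to 0.62 for Ccnb2. T12 minus Ttf cells ran from -0.48 to 0.62 for Ccnb2, -0.11 to 0.93 for Cdk1, -0.54 to 0.43 for Cdc25c, -0.34 to 0.45 for Aurka and -0.11 to 0.0402 for Dlgap5. Ttf minus mid-late cells ran from -0.84 to 0.0298 for Ccnb2, -0.11 to 0.68 for Cdk1 and -0.69 to 0.28 for Cdc25c, and t12 minus mid-late cells from -0.76 to 0.0792 for Ccnb2. The difference between sorted cells and testes ran from -0.14 to 0.96 for Ccnb2, -0.33 to 0.70 for Cdk1, -0.60 to 0.37 for Cdc25c, -0.0167 to 0.77 for Aurka and -0.0483 to 0.10 for Dlgap5. T12 minus Ttf testes ran from -0.0231 to 0.0071 for Cdc27.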
